A study of Mus musculus with 36 samples.

Results

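Glycolytic enzymes were followed across the stem cells of skeletal muscle (MuSCs or satellite cells, which lie on muscle fibres and rebuild them after injury) by polyA RNA sequencing. The enzymes were chosen by name: the rows whose gene symbol was Hk1, Hk2, Pfkl, Pfkp, Aldoa, Tpi1, Pgk1, Eno1, Pkm or Ldha. All 10 were found among the 11337 genes of the deposited table, which held 36 libraries in 8 groups. No measured value entered that choice, but results of these data were known when it was made.

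The mice were male and of the C57BL/6 background, which the sample labels write as C56BL/6 and the design text as C57BL6, and each library came from the hindlimb MuSCs of 1 mouse. A wheel cohort of 21 mice was housed with running wheels for 3 weeks, locked in the groups marked -Ex and turning freely in those marked +Ex. Cells were sorted as viable and VCAM+ without CD31, CD45 or Sca1. Y(-Ex) held 6 mice and Y(+Ex) 3 mice of 3 months, and O(-Ex) held 7 mice and O(+Ex) 5 mice of 18 months, all with intact Ccnd1. In the Ccnd1 cohort of 15 mice, every animal, controls included, carried Pax7_CreERT2, a tamoxifen-inducible Cre in cells that express Pax7, together with the R26R_YFP reporter, and received tamoxifen. Viable YFP+ cells were sorted 6 weeks after tamoxifen. Y(WT) held 3 mice with Ccnd1_+/+, Y(HET) 4 with Ccnd1_+/flox and Y(KO) 5 with Ccnd1_flox/flox, all of 3 months, and O(WT) held 3 Ccnd1_+/+ mice of 18 months. Ccnd1 encodes cyclin D1, which drives entry into the cell cycle.

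Glycolysis splits glucose into pyruvate in the cytosol and yields ATP without oxygen, and lactate dehydrogenase then turns pyruvate into lactate and regenerates the NAD that the pathway needs. Hexokinase traps glucose in the cell and phosphofructokinase commits it to the pathway, and both steps are under tight control by metabolites. Most steps can be run by several isozymes from separate genes, with their own tissue distribution. Resting satellite cells are known for a low metabolic rate, and their activation is accompanied by a rise in glycolysis.

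The values were in RPKM, read counts scaled by transcript length and library depth, so levels of different genes can be compared per length. The table holds no value of 0, and the reads of each library are unknown from it, so no counting interval can be given. The log2 values, centred by gene, had rank 29 of a possible 35, so 6 directions of variation were missing, and no source used here gives the step that took them out. The difference between the controls of the cohorts lay mostly in them. They held 92.0% of the contrast between the young controls Y(WT) and Y(-Ex), and 96.0% of that between O(WT) and O(-Ex). What else they held is unknown, and contrasts within a cohort also lay partly in them. No gene of 11337 differed between the controls of the cohorts at an unadjusted p under 0.05 in the limma fit, and the 10 enzymes differed by at most 0.09 on the log2 scale. The age differences of the cohorts are therefore not independent of each other. The share in the missing directions was 28.4% for age in the wheel cohort and 61.2% in the Ccnd1 cohort. It was 0% for O(+Ex) against Y(+Ex) and for Y(KO) against Y(HET). The limma fits did not allow for the missing directions. Their SEs, intervals and p-values are therefore approximate, and how far they are off was not tested. The satellite cell markers, all 12 of 12 in the table, summed to 2330 to 3790 RPKM in every library. Sdc4 made the largest part, with group means from 1550 to 1950 RPKM, while those of Pax7 ran from 15.8 to 26.4. Ccnd1 averaged 11.7 RPKM in Y(WT), 7.18 in Y(HET) and 2.71 in Y(KO).

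The enzymes spanned a wide range of levels. Aldoa, the aldolase that cleaves fructose bisphosphate, had the highest mean over the 36 libraries at 336 RPKM, above 98.8% of all genes in the table. Ldha, the muscle-type subunit of lactate dehydrogenase, followed at 249 RPKM and Pkm, the pyruvate kinase gene, at 165 RPKM. Eno1 (enolase) averaged 58.9 RPKM and Pgk1 (phosphoglycerate kinase) 40.4 RPKM. Hk2 at 28.3, Tpi1 (triosephosphate isomerase) at 26.7, Pfkp at 22.8 and Hk1 at 18.6 RPKM lay close together. Pfkl, the liver-type subunit of phosphofructokinase, was the lowest at 6.46 RPKM, above 51.8% of all genes. Thus the hexokinases and phosphofructokinases were at the lower end of the set, with Tpi1 among them. The aldolase and lactate steps were at the upper end.

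The group means of most of the enzymes lay close together. The ratio of the highest to the lowest of the 8 group means was 1.96 for Hk1 and 1.41 for Pfkl. It lay between 1.12 (Pgk1) and 1.34 (Hk2) for the other 8. As the plot of levels by library shows, the old libraries of Hk1 and Pfkl formed a lower band in both cohorts.

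**Figure D1:**
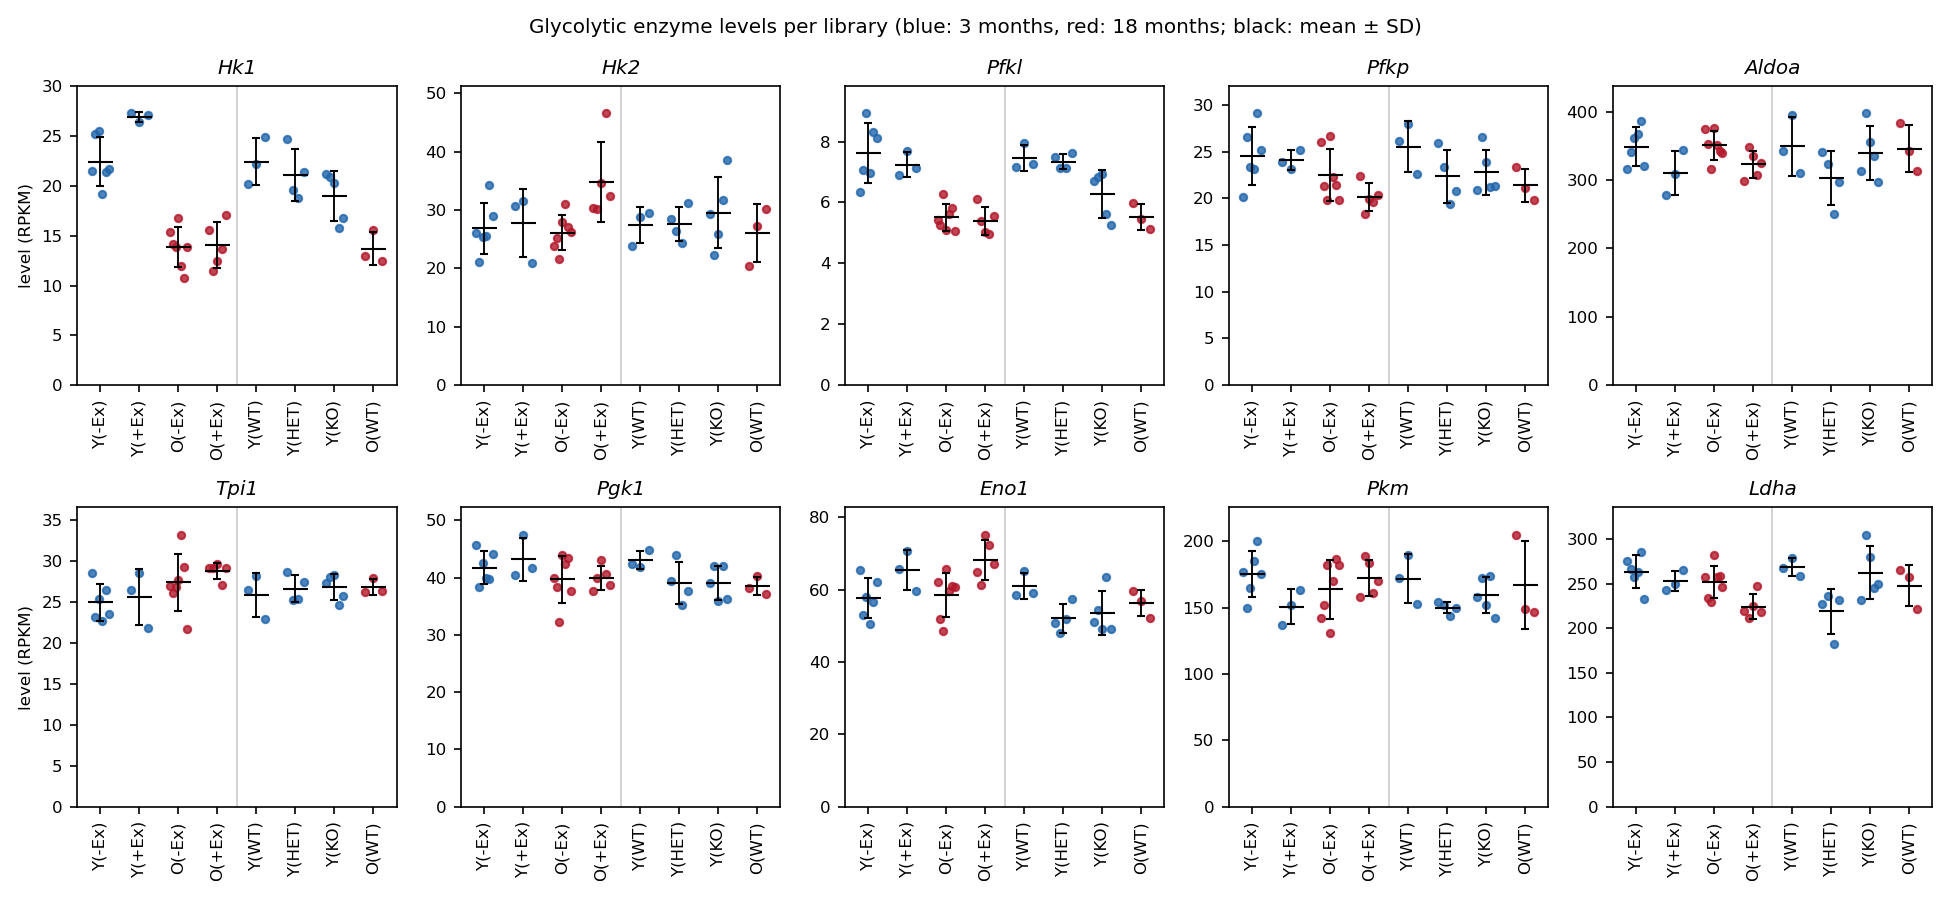
Level of each enzyme in RPKM (vertical axes from 0) in each of the 36 libraries, by group (horizontal axes); points are single mice, blue 3 months and red 18 months, and black marks are the group mean with its SD. Hk1 and Pfkl are lower in the old groups, while the other 8 enzymes lie at similar levels in most groups.

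Some sequence is shared between genes, which limits how the reads could be assigned. Over stretches of 101 bases, the read length, 67.0% of those in the Pgk1 transcripts also occurred in transcripts of other genes, chiefly the processed pseudogene Pgk1-rs7. The share was 39.3% for Eno1, nearly all of it with Eno1b, and 7.3% for Pkm. Pfkp shared 14.1% with Pitrm1, which overlaps it on the opposite strand, and no source used here says whether the counting used strand. Pkm also overlaps Gm49759 on the same strand, over 15.3% of its exon bases. The levels of Pgk1, Eno1, Pkm and Pfkp are uncertain to that extent. The share was at most 0.8% for Hk1, Hk2, Pfkl, Aldoa, Tpi1 and Ldha.

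Age was compared between mice of 18 and 3 months, and the call was an adjusted p under 0.05 from limma over all 11337 genes. Hk1 and Pfkl were lower in old MuSCs in both cohorts, and none of the other 8 enzymes passed. The cohorts are not separate evidence here: 89.4% of the difference between their age effects lay in the missing directions. With a locked wheel 2 of the 10 enzymes were called lower and 0 higher, where 17.8% of all genes were called lower and 20.5% higher. In the Ccnd1 cohort 2 of 10 were called lower and 0 higher, against 7.76% lower and 8.03% higher of all genes. The share of the enzymes called lower with a locked wheel was thus near that of all genes. The median log2 difference of the 10 was -0.07 with a locked wheel, beside 0.007 over all genes, and their median size was 0.09 beside 0.25. In the Ccnd1 cohort the median was -0.12 beside -0.008, and the median size 0.12 beside 0.24.

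Hk1 encodes hexokinase 1, the broadly expressed isozyme that phosphorylates glucose and binds to mitochondria (chromosome 10, 62268855 to 62379908 on the minus strand of mm10). In Y(-Ex) its lowest, median and highest levels were 19.2, 21.6 and 25.5 RPKM. In O(-Ex) they were 10.8, 13.9 and 16.8 RPKM, so every old library lay below every young one. The means were 13.9 ± 1.99 RPKM (SD, n = 7) in O(-Ex) and 22.4 ± 2.45 (SD, n = 6) in Y(-Ex), 1.62-fold lower with age. The log2 difference was -0.70 ± 0.10 (SE), with a 95% interval from -0.91 to -0.49 and a limma adjusted p of 1.8e-05. With any 1 library of the 2 groups left out, it lay between -0.75 and -0.64. In the Ccnd1 cohort, O(WT) libraries had 13.0, 15.6 and 12.5 RPKM and Y(WT) libraries 20.2, 22.2 and 24.9 RPKM. These groups did not overlap either, and the difference was -0.71 ± 0.14 (limma adjusted p = 0.00505).

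Free-wheel mice gave an age comparison that no missing direction touches, and it was added after the values were seen. Hk1 was 15.6, 11.5, 12.5, 13.7 and 17.1 RPKM in O(+Ex) and 27.3, 26.4 and 27.1 RPKM in Y(+Ex). The groups were apart, with a log2 difference of -0.95 ± 0.13, an interval from -1.23 to -0.67 and a limma adjusted p of 1.66e-05. This was the largest of the 90 differences measured for the enzymes. Of all genes 17.7% were called lower and 20.5% higher in this comparison, and of the enzymes again Hk1 and Pfkl were the 2 called lower and 0 were called higher.

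Pfkl (chromosome 10, 77986947 to 78010083, minus strand) encodes 1 of the phosphofructokinase subunits, which assemble as tetramers. Its lowest, median and highest levels were 6.34, 7.60 and 8.93 RPKM in Y(-Ex) and 5.07, 5.41 and 6.27 RPKM in O(-Ex). The groups did not overlap, though the highest old library lay just below the lowest young one. The means were 5.51 ± 0.434 RPKM (SD, n = 7) and 7.62 ± 0.979 (SD, n = 6), a 1.38-fold decrease. The log2 difference was -0.46 ± 0.08, with an interval from -0.64 to -0.29 and a limma adjusted p of 2.01e-04. With any 1 library left out, it lay between -0.51 and -0.41. In the Ccnd1 cohort the levels were 5.98, 5.45 and 5.12 RPKM in O(WT) and 7.17, 7.96 and 7.26 in Y(WT), a difference of -0.44 ± 0.11 (limma adjusted p = 0.0194). That call was lost without Y(WT) replicate 2 (-0.39, adjusted p = 0.0693) and without O(WT) replicate 3 (-0.38, adjusted p = 0.0778). With a free wheel Pfkl was 6.10, 5.39, 5.03, 4.96 and 5.55 RPKM in O(+Ex) and 6.91, 7.69 and 7.12 in Y(+Ex), a difference of -0.42 ± 0.11 (limma adjusted p = 0.0045).

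The sequences before the starts of the 2 genes that fell are shown because their transcripts were lower together. They are the 250 bases ahead of each start in the RefSeq table of GRCm38.p6, on the minus strand and written 5′ to 3′. Capitals mark GCGTG, or CACGC where it lies on the other strand; with ACGTG this is the core of the element bound by hypoxia-inducible factors (HIFs), which are known to drive glycolytic genes at low oxygen. Hk1 has a pair of annotated starts. The upstream one, at chr10:62379909-62380158, holds neither ACGTG nor GCGTG on either strand. The downstream one, at chr10:62340422-62340671, holds 3 GCGTG matches, of which the last 2 overlap. The Pfkl window, at chr10:78009808-78010057, holds 1. That window lies inside the Pfkl span given above, and the end of each of these windows lies in an annotated transcript. By annotation the stretches are thus partly transcribed.
Hk1 upstream start: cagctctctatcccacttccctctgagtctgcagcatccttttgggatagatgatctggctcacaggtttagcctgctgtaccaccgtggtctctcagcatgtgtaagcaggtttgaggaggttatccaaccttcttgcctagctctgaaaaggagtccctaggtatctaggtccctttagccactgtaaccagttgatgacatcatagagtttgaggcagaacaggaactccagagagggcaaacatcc
Hk1 downstream start: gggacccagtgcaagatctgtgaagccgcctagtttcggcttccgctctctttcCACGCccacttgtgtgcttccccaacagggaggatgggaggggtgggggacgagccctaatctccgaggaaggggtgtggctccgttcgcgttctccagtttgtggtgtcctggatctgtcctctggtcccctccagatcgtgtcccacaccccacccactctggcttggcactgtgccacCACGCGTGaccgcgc
Pfkl: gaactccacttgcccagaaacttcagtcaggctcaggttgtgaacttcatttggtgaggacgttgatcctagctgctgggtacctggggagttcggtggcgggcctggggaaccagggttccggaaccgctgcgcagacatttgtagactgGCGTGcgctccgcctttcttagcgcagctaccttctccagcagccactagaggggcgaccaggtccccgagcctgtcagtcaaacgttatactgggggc

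All 10 enzymes were matched in that table, with 17 windows. Either ACGTG or GCGTG was found in 13 of the 17 windows, where 38.6% of 32851 promoter windows hold either. Some windows of Aldoa and of Eno1 overlap, so the 17 are not separate stretches. By gene, 9 of the 10 enzymes had a match in any of their windows, Tpi1 being the exception. No share over all genes stands beside that count by gene, as the 38.6% is a share of windows. Singly, ACGTG is in 16.6% and GCGTG in 28.2% of windows. CACGTG, the E-box bound by Myc and related factors, which contains ACGTG on both strands, is in 6.0%. Among the enzymes CACGTG was found only before the upstream Ldha start, which has 5 ACGTG matches that include 2 CACGTG. A match describes the letters and not a bound site. With a match in 9 of the 10, the motif could hardly tell the enzymes apart. Its part in the Hk1 and Pfkl decreases was not tested.

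Hk2, the insulin-responsive hexokinase of muscle, did not follow Hk1. Its lowest, median and highest levels were 21.1, 25.7 and 34.3 RPKM in Y(-Ex) and 21.7, 26.3 and 31.0 RPKM in O(-Ex), so the ranges nearly coincided. The log2 difference was -0.03, with an interval from -0.28 to 0.22 (limma adjusted p = 0.86). The ratio of Hk2 to Hk1 within a library ranged from 0.838 to 1.60 in Y(-Ex) and from 1.55 to 2.58 in O(-Ex). It ranged from 0.775 to 1.20 in Y(+Ex) and from 1.90 to 3.39 in O(+Ex). The range in the Ccnd1 cohort was from 1.19 to 1.30 in Y(WT), 1.15 to 1.45 in Y(HET), 1.07 to 2.29 in Y(KO) and 1.57 to 2.41 in O(WT). Hk2 was thus the more abundant hexokinase in every old library and in every young library of the Ccnd1 cohort. The young libraries of the wheel cohort lay on either side of equality, and Y(KO) reached into the range of the old groups. The ratio is given as a description, with no test.

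Pfkp, the platelet-type phosphofructokinase, was the more abundant of the phosphofructokinase pair in every group. Its levels ran from 20.1 to 29.1 RPKM in Y(-Ex) and from 19.8 to 26.7 in O(-Ex), with a difference of -0.13 ± 0.09 (limma adjusted p = 0.257). With a free wheel the groups were apart, at 18.3 to 22.4 RPKM in O(+Ex) and 23.1 to 25.2 in Y(+Ex). That difference of -0.26 ± 0.11 did not pass (limma adjusted p = 0.0686), but it did with only the groups compared in the fit (adjusted p = 0.0275) and after median-of-ratios scaling (0.0456). The Pfkp to Pfkl ratio averaged 3.24 ± 0.388 (SD, n = 6) in Y(-Ex) and 4.11 ± 0.698 (SD, n = 7) in O(-Ex).

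The enzymes of the later steps showed intervals around no change. Aldoa averaged 349 ± 28.2 RPKM in Y(-Ex) and 351 ± 20.9 in O(-Ex), with a log2 difference of 0.01 and an interval from -0.12 to 0.14. Tpi1, which interconverts the triose phosphates, differed by 0.13 (interval -0.04 to 0.30). Pgk1, the ATP-yielding kinase of the lower pathway, differed by -0.08 (-0.22 to 0.07), and Eno1 by 0.02 (-0.14 to 0.18). Pkm, whose product makes pyruvate and ATP, differed by -0.11 (-0.28 to 0.07), and Ldha by -0.06 (-0.19 to 0.06). A decrease of the size seen for Hk1 lay outside each of these intervals, and one of the size seen for Pfkl did too. In the Ccnd1 cohort the intervals of these 6 lay between -0.40 and 0.30, and none passed.

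**Figure D2:**
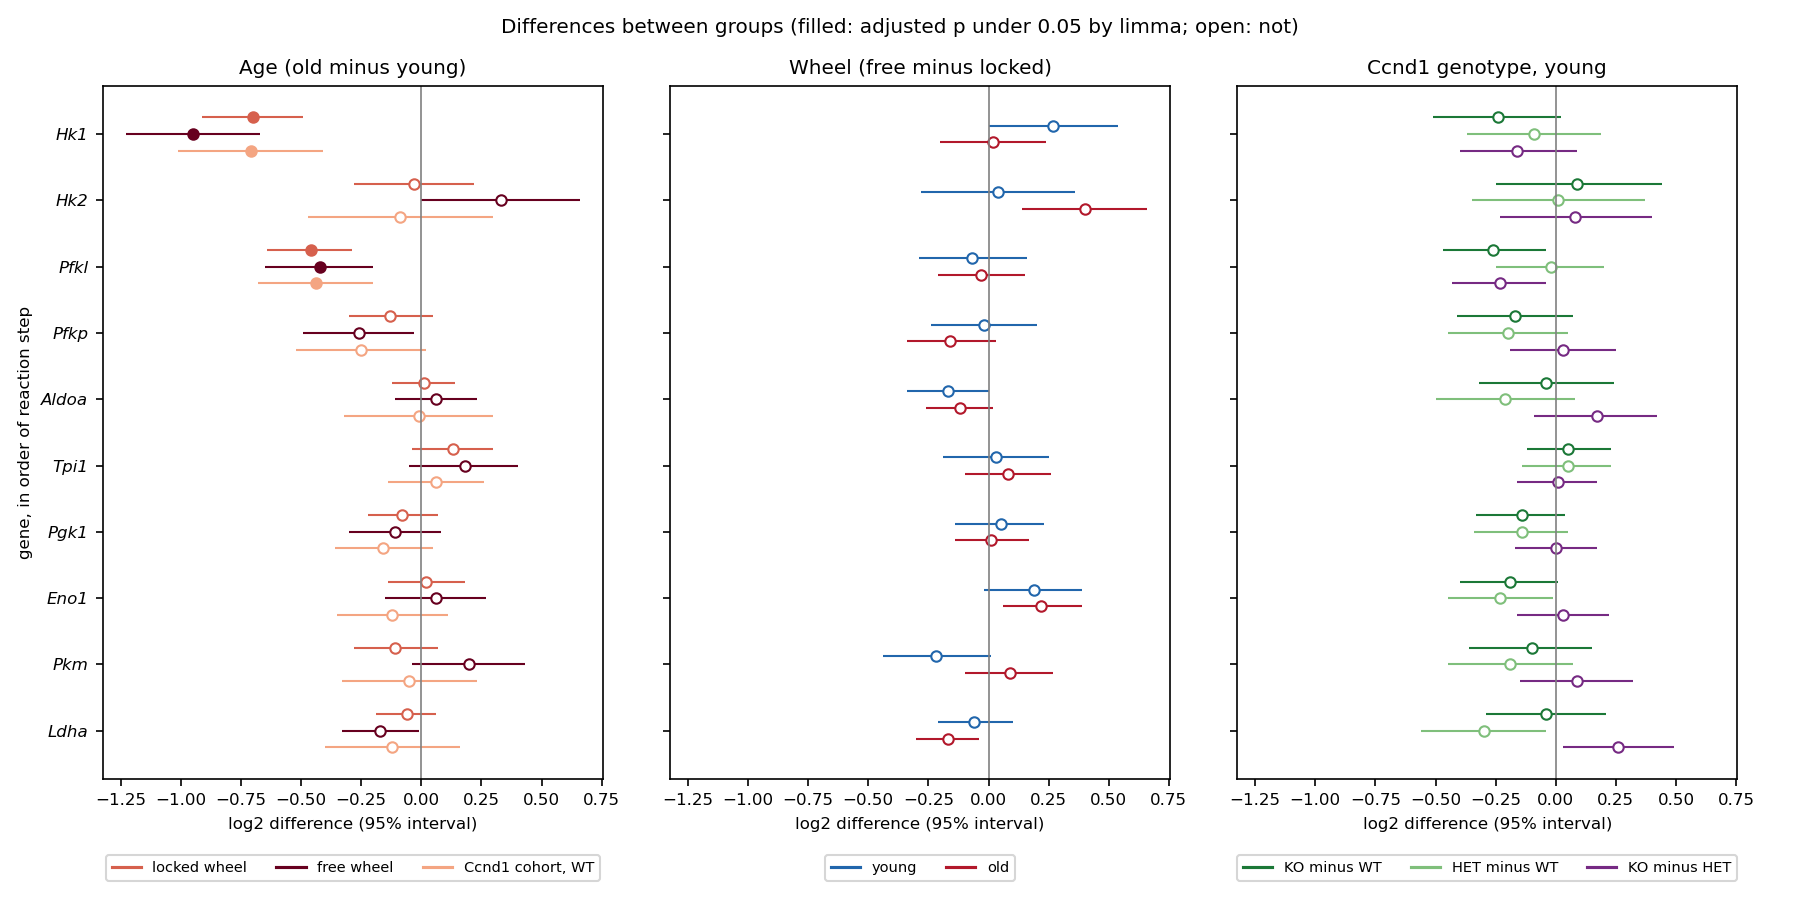
Log2 differences of the 10 enzymes (rows, in order of reaction step) with 95% intervals, for age (left), the wheel (middle) and Ccnd1 genotype (right); filled points passed a limma adjusted p of 0.05 over all genes and open points did not. Hk1 and Pfkl are filled in all 3 age comparisons, and every point of the wheel and genotype panels is open.

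Markers of other cells moved with age as well. The counts below, with a locked wheel, stand beside 17.8% of all genes called lower and 20.5% called higher. A sum of levels is set mostly by its most abundant genes. The mature myofibre markers, 13 of 16 in the table, summed to 66 to 229 RPKM (median 150) in O(-Ex) and to 159 to 825 (median 259) in Y(-Ex), and 5 of the 13 were called lower. In O(+Ex) they summed to 57 to 179 RPKM and in Y(+Ex) to 260 to 480. The fibro-adipogenic markers, 9 of 9, summed to 608 to 690 RPKM in O(-Ex) and 424 to 609 in Y(-Ex). Of these, 4 were called higher and 1 lower, Clec3b (-1.20). The endothelial markers, 9 of 9, summed to 120 to 179 RPKM in O(-Ex) and 103 to 154 in Y(-Ex), with 3 called higher and 0 lower. Of the 12 satellite cell markers 6 were called lower and 1 higher with age. The myogenic differentiation markers, 6 of 9, summed to 51.2 to 88.8 RPKM in O(-Ex) and 84.7 to 147 in Y(-Ex), and 4 of the 6 were called lower. The tenocyte markers, 7 of 7, summed to 61.5 to 260 RPKM in O(-Ex) and 44.7 to 141 in Y(-Ex), with 3 called higher. The smooth muscle and pericyte markers, 8 of 8, summed to 219 to 272 RPKM in O(-Ex) and 292 to 412 in Y(-Ex), with 1 higher and 1 lower. The lower one was Acta2, at a mean of 126 RPKM in O(-Ex) and 212 in Y(-Ex), and the higher one Myh11 (0.64). Schwann cell markers had 2 higher and 1 lower of 7, and haematopoietic markers 1 higher of 9. Of 3 erythroid markers 1 was lower, the haemoglobin gene Hba-a2 (-5.21), while the 3 summed to 6.5 to 25.3 RPKM in O(-Ex) and 7.75 to 23.2 in Y(-Ex). In sorted bulk RNA, fewer cells of a type and less RNA per cell cannot be told apart, and the part of these markers in the Hk1 and Pfkl decreases was not tested.

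Other isozymes of the pathway moved with age too. Of 20 listed, 11 were in the table, and with a locked wheel 5 rose and 2 fell, beside 20.5% and 17.8% of all genes, so the share that fell was near that of all genes. The list holds Pgam5, which is not an isozyme of the pathway, and Pgam5 is among the 5 that rose. Ldhb, the heart-type subunit of lactate dehydrogenase, rose from 23.9 ± 1.85 RPKM (SD, n = 6) to 37.1 ± 2.00 (SD, n = 7). Its difference was 0.64 ± 0.06 (limma adjusted p = 1.32e-07), and the groups were apart at 22.3 to 26.4 and 34.8 to 40.7 RPKM. Ldha stayed far more abundant: the Ldhb to Ldha ratio averaged 0.0909 ± 0.00868 in Y(-Ex) and 0.148 ± 0.0154 in O(-Ex). Pgam1, the phosphoglycerate mutase of most tissues, rose by 0.44 ± 0.07 (adjusted p = 7.37e-05), from 20.9 to 28.4 RPKM in the mean. Gpi1, the isomerase between the hexokinase and phosphofructokinase steps, rose by 0.23 ± 0.07 (adjusted p = 0.00932). Bpgm, which makes and removes bisphosphoglycerate, rose by 0.55, and Pgam5, a mitochondrial phosphatase named for its mutase fold, by 0.49.

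The 2 that fell are muscle forms. Eno3, the enolase of muscle fibres and 1 of the myofibre markers above, fell by 1.04 on the log2 scale (adjusted p = 0.00367), with 6.20 to 13.5 RPKM in O(-Ex) and 9.32 to 38.6 in Y(-Ex). Pfkm, the muscle phosphofructokinase, fell by 0.54 (adjusted p = 0.0238). Gapdh, the dehydrogenase that reduces NAD in the middle of the pathway, differed by -0.10 ± 0.09 (adjusted p = 0.394). With a free wheel the count was again 5 higher and 2 lower, beside 20.5% and 17.7% of all genes. In the Ccnd1 cohort 3 rose (Pgam5, Bpgm and Ldhb) and 0 fell, beside 8.03% and 7.76%.

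**Figure D3:**
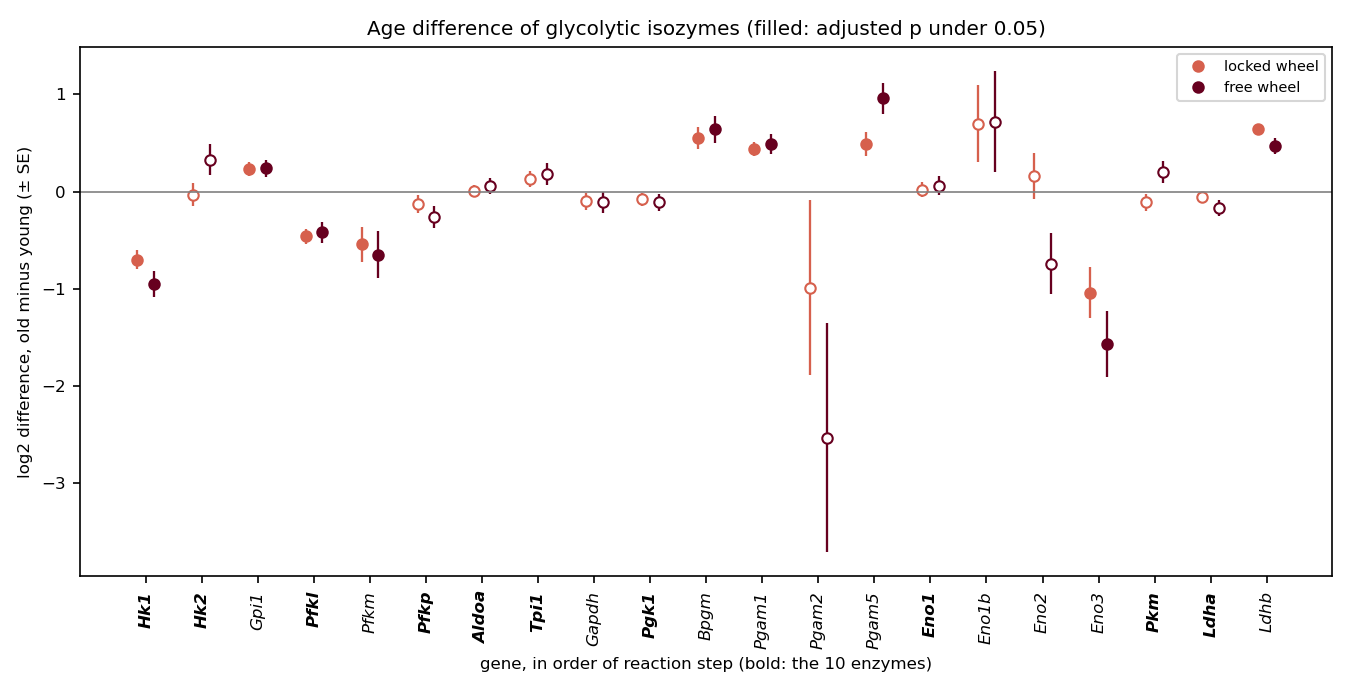
Log2 difference between old and young MuSCs (vertical axis, ± SE) for the 10 enzymes (bold) and the 11 genes of the list of other isozymes in the table, Pgam5 included, in order of reaction step, with a locked (light) and a free wheel (dark); filled points passed the adjusted p of 0.05. Within a step the isozymes differ, as with Hk1 below and Hk2 near 0, or Ldha near 0 and Ldhb above it.

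Among glucose and lactate carriers, 10 of 12 were in the table, and with a locked wheel 1 rose and 2 fell. Of all genes 20.5% were called higher and 17.8% lower there, which also stands beside the pyruvate and flux lists below. The carrier and pyruvate counts lay near or below those shares. Slc2a12 (GLUT12) fell by 0.79 and Slc2a3 (GLUT3) by 0.50, and Slc16a1 (the lactate carrier MCT1) rose by 0.33. Slc2a1 (GLUT1), the main basal glucose carrier of many cells, differed by -0.00 ± 0.12 (limma adjusted p = 0.981). At the entry of pyruvate into mitochondria, 17 of 17 genes were found, with 1 higher and 2 lower. Pdk4, the kinase that switches off pyruvate dehydrogenase, fell from 78.2 ± 11.5 to 48.4 ± 7.30 RPKM (-0.69 ± 0.10, limma adjusted p = 1.3e-05), and Pdk2 fell by 0.56. Me1, the cytosolic malic enzyme, rose by 0.67. Among the enzymes and proteins that set the flux through glycolysis, 6 of 11 were found: Txnip, an inhibitor of glucose uptake, fell by 0.73, Adpgk, an ADP-dependent glucokinase, by 0.60, and Minpp1 rose by 0.67. The other age comparisons called fewer or other genes of these lists. Slc2a12 and Pdha1 were lower and Me1 and Minpp1 higher in the Ccnd1 cohort. Pdk4 (-0.65, limma adjusted p = 0.162), Pdk2, Slc2a3, Slc16a1, Txnip and Adpgk did not pass there. With a free wheel Slc2a12, Slc2a3, Slc16a3, Pdk4, Pdha1, Txnip, Adpgk and Pfkfb3 were lower and Pdp1, Me1 and Minpp1 higher, and Pdk2 and Slc16a1 did not pass.

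The HIF factors, 9 of 10 in the table, had 3 lower and 0 higher with a locked wheel, beside 17.8% and 20.5% of all genes. Arnt, the partner subunit of the HIFs, fell by 0.46 (limma adjusted p = 6.17e-05), Epas1 (HIF-2 alpha) by 0.73 and Hif1a by 0.25. Of these, Arnt was also called lower in the Ccnd1 cohort (-0.46, limma adjusted p = 0.0126), and Epas1 (-0.52, adjusted p = 0.152) and Hif1a (-0.20, adjusted p = 0.311) did not pass. With a free wheel Epas1, Arnt and Vhl were called lower, and Hif1a (-0.10, adjusted p = 0.429) did not pass. Of 19 HIF targets outside glycolysis, of 21 listed, 4 rose and 3 fell with a locked wheel, near the shares of all genes. Genes of glycogen metabolism, 13 of 18 in the table, had 8 lower and 0 higher, beside 17.8% and 20.5% of all genes. Their median difference was -0.37, beside 0.007 for all genes. Gys1, the muscle glycogen synthase, fell from 2.49 ± 0.497 to 1.24 ± 0.276 RPKM (-1.01 ± 0.15, limma adjusted p = 3.03e-05), and Pgm2 fell by 0.80. With a free wheel 7 of these 13 were lower and 2 higher, beside 17.7% and 20.5% of all genes. In the Ccnd1 cohort 4 were lower and 0 higher, beside 7.76% and 8.03%. Gbe1, the glycogen branching enzyme, is in both the HIF target and the glycogen lists.

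Among the other branches with a locked wheel, several counts lay near the 20.5% of all genes called higher and 17.8% called lower. The pentose phosphate pathway had 4 higher and 2 lower of 10, and the serine and glycine branch 1 and 4 of 10. The hexosamine branch had 1 higher and 3 lower of 10, and the tricarboxylic acid cycle 1 and 5 of 21. Myc, the Max network and sugar sensors had 0 higher and 3 lower of 10, and gluconeogenesis and fructose use 0 and 0 of 6.

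The free wheel was compared with the locked wheel at each age. The missing directions held 12% of this contrast in old mice, 10.2% in young mice and 10.4% of the interaction between them. No enzyme was called in old mice, where 4.09% of all genes were called higher and 3.3% lower by limma. At an unadjusted p under 0.05, 3 of the 10 passed (Hk2, Eno1 and Ldha), beside 23.3% of all genes. No enzyme was called in young mice either, where 0.406% of genes were called higher and 0.714% lower, and 2 passed unadjusted (Hk1 and Aldoa), beside 15.8%. The difference of the wheel effects between ages, the interaction, called 0 enzymes, with 0.00882% of genes called higher and 0% lower, and 1 enzyme passed unadjusted (Pkm), beside 8.47%. The median log2 difference of the enzymes was 0.02 in old and 0.01 in young mice, beside -0.008 and 0.001 over all genes.

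Hk2 came nearest to a call. It was 30.3, 30.1, 34.7, 46.6 and 32.4 RPKM in O(+Ex), and 21.7, 26.3 and 31.0 RPKM at the lowest, the median and the highest of O(-Ex). Replicate 4 of O(+Ex) stood above the rest, 2 more lay above the highest O(-Ex) library, and the other 2 lay within the range of O(-Ex). The means were 34.8 ± 6.85 (SD, n = 5) and 26.2 ± 2.99 RPKM (SD, n = 7), a difference of 0.40 ± 0.13 with an interval from 0.14 to 0.66 and a limma adjusted p of 0.0551. Without O(+Ex) replicate 4 the difference was 0.29 (adjusted p = 0.154). It passed with only the 2 groups in the fit (adjusted p = 0.0487) and without O(-Ex) replicate 5 (0.44, adjusted p = 0.0499). In Y(+Ex) the levels were 30.7, 31.6 and 21 RPKM, a difference of 0.04 ± 0.15 from Y(-Ex). The interaction was 0.36 ± 0.20 (limma adjusted p = 0.658), so a difference of the Hk2 response between the ages was not shown.

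Eno1 was 65.0, 61.3, 75.2, 72.3 and 67.1 RPKM in O(+Ex) and 48.6 to 65.7 RPKM in O(-Ex). The means of 68.2 ± 5.57 and 58.5 ± 6.04 RPKM differed by 0.22 ± 0.08 (limma adjusted p = 0.0921). In Y(+Ex) Eno1 was 65.8, 70.8 and 59.7 RPKM, a difference of 0.19 ± 0.10 (limma adjusted p = 0.365). The differences at both ages had the same sign and similar size, and neither passed.

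Ldha lay lower with a free wheel in old mice, at 219, 212, 225, 248 and 218 RPKM beside 229 to 282 RPKM in O(-Ex). The difference was -0.17 ± 0.06 (limma adjusted p = 0.102). In young mice it was -0.06 ± 0.08. Ldhb, in contrast, passed in old mice: it fell by 0.23 (limma adjusted p = 0.0287), from a mean of 37.1 to 31.5 RPKM. Pgam5 rose by 0.42 (adjusted p = 0.0495), and Slc16a3, the lactate exporter MCT4, fell by 0.50 (adjusted p = 0.0415).

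Hk1 in young mice was 27.3, 26.4 and 27.1 RPKM with a free wheel, all above the highest Y(-Ex) library at 25.5 RPKM. The difference of 0.27 ± 0.13 did not pass (limma adjusted p = 0.307), and in old mice it was 0.02 ± 0.11. The interaction of -0.25 ± 0.17 did not pass either (limma adjusted p = 0.732). Pkm was 137, 152 and 163 RPKM in Y(+Ex) beside 150 to 200 RPKM in Y(-Ex), a difference of -0.22 ± 0.11 (limma adjusted p = 0.331). In old mice Pkm differed by 0.09 ± 0.09, and the interaction of 0.30 ± 0.14 did not pass (adjusted p = 0.574). Aldoa was 279, 309 and 344 RPKM in Y(+Ex), -0.17 ± 0.08 from Y(-Ex) (adjusted p = 0.31), and differed by -0.12 ± 0.07 in old mice. The remaining 4 enzymes, Pfkl, Pfkp, Tpi1 and Pgk1, differed by -0.16 to 0.08 with the wheel at either age. The wheel moved markers as well. The 6 of 9 myogenic differentiation markers in the table summed to 103 to 150 RPKM in O(+Ex) and 51.2 to 88.8 in O(-Ex). Of these 6, 4 were called higher, beside 4.09% of all genes. The endothelial markers summed to 169 to 246 and 120 to 179 RPKM, with 2 of 9 called higher. Of 8 smooth muscle and pericyte markers 1 was called higher and 3 lower, beside 4.09% and 3.3% of all genes. In young mice the myogenic differentiation markers summed to 126 to 227 RPKM in Y(+Ex) and 84.7 to 147 in Y(-Ex). There 2 of the 6 were called higher and 0 lower, beside 0.406% and 0.714% of all genes. Their part in the differences of the enzymes was not tested.

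Loss of Ccnd1 was compared in the young mice. No enzyme was called in Y(KO) against Y(WT), where limma called 5.05% of all genes higher and 1.94% lower, and 1 passed unadjusted (Pfkl), beside 25.7% of genes. None was called in Y(HET) against Y(WT), with 1.98% of genes higher and 3.4% lower, and 2 passed unadjusted (Eno1 and Ldha), beside 23.1%. None was called in Y(KO) against Y(HET), with 5.15% higher and 0.891% lower, and 2 passed unadjusted (Pfkl and Ldha), beside 22.7%. After median-of-ratios scaling the calls over all genes were split differently, with 272 higher and 187 lower for Y(HET) against Y(WT) in place of 225 and 386, 213 and 130 for Y(KO) against Y(HET) in place of 584 and 101, and 438 and 267 for Y(KO) against Y(WT) in place of 573 and 220. No enzyme was called under that scaling. The comparisons with Y(WT) share its 3 libraries and lie by 38.3% and 35.1% in the missing directions.

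Pfkl was 6.71, 6.84, 6.94, 5.61 and 5.27 RPKM in Y(KO), beside 7.17, 7.96 and 7.26 in Y(WT) and 7.48, 7.13, 7.12 and 7.61 in Y(HET). Every Y(KO) library lay below every library of the other 2 genotypes, and 2 of the 5 were as low as the old mice. The difference was -0.26 ± 0.10 from Y(WT) (limma adjusted p = 0.126) and -0.23 ± 0.09 from Y(HET) (limma adjusted p = 0.148), and neither passed. Hk1 was 21.2, 20.9, 20.3, 15.8 and 16.8 RPKM in Y(KO), and the last 2 values belong to the same 2 mice that were low in Pfkl. The Hk1 difference from Y(WT) was -0.24 ± 0.13 (limma adjusted p = 0.237), with overlapping groups.

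Eno1 was 50.9, 48.0, 51.9 and 57.5 RPKM in Y(HET) and 58.6, 65.1 and 59.2 in Y(WT). The groups were apart by a small margin, and the difference of -0.23 ± 0.10 did not pass (limma adjusted p = 0.19). In Y(KO) Eno1 averaged 53.5 ± 6.06 RPKM, -0.19 ± 0.10 from Y(WT). Ldha was 227, 236, 182 and 232 RPKM in Y(HET) and 268, 279 and 259 in Y(WT), again apart and not passing (-0.30 ± 0.12, limma adjusted p = 0.156). In Y(KO) it was 232, 305, 280, 245 and 250 RPKM, 0.26 ± 0.11 above Y(HET) (limma adjusted p = 0.164), so the order of the means did not follow the number of intact Ccnd1 copies. The other 6 enzymes, Hk2, Pfkp, Aldoa, Tpi1, Pgk1 and Pkm, differed by -0.21 to 0.17 in the 3 genotype comparisons.

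Related genes passed in the main fit of these comparisons where the enzymes did not. With a replicate block, nearly all calls over all genes for Y(KO) against Y(WT) were lost, as given below. Slc2a12 was lower in Y(KO) (-0.79, limma adjusted p = 0.0329) and in Y(HET) (-0.81, 0.0408) than in Y(WT). It was the 1 of 10 carriers called in each, beside 1.94% and 3.4% of all genes called lower. Pcx, the pyruvate carboxylase, was lower in Y(KO) (-0.64) and in Y(HET) (-0.84). Pdha1, a subunit of pyruvate dehydrogenase, was lower in Y(KO) (-0.36). Txnip was higher in Y(HET) by 1.04 (limma adjusted p = 0.0337), and Arnt was lower in Y(KO) (-0.38) and in Y(HET) (-0.45). Txnip was the 1 of 6 flux genes called in Y(HET), beside 1.98% of all genes called higher. Arnt was the 1 of 9 HIF factors called in each. Pdp1, a phosphatase that switches pyruvate dehydrogenase on, was lower in Y(HET) than in Y(WT) (-0.70, limma adjusted p = 0.0322). Of the 17 genes of pyruvate entry, 2 were lower in Y(KO) and 2 in Y(HET) than in Y(WT), beside 1.94% and 3.4% of all genes. In Y(KO) against Y(HET), Pdp1 (0.71, limma adjusted p = 0.0126) and Pgam5 (0.51, adjusted p = 0.00769) were higher. They were 1 of 17 pyruvate genes and 1 of 11 genes on the isozyme list, beside 5.15% of all genes. Markers of other cells moved with genotype as well. Tenocyte markers summed to 114 to 205 RPKM in Y(KO), 30.4 to 143 in Y(WT) and 74.2 to 89.5 in Y(HET). In Y(KO) 3 of 7 were called higher than in Y(WT) and 4 of 7 higher than in Y(HET), beside 5.05% and 5.15% of all genes. Myogenic differentiation markers summed to 55.3 to 73.3 RPKM in Y(KO), 89.8 to 140 in Y(WT) and 66.8 to 82.7 in Y(HET). Of these, 2 of 6 were called lower in Y(KO) than in Y(WT), beside 1.94% of all genes. Their part in the differences of the enzymes was not tested.

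The authors' deposited table also gives each gene a correlation coefficient with Ccnd1, and no source used here gives the libraries and method behind it. In the authors' deposited table the coefficient of Eno1 was 0.79, which ranked 16 among the 11336 genes other than Ccnd1. For Pgk1 the authors' deposited table gives 0.42 and for Hk2 0.30. The other 7 enzymes had 0.14 or less in the authors' deposited table, down to -0.15 for Aldoa and Ldha. Eno1 and Ccnd1 had their highest group mean in the same group, O(+Ex), at 68.2 and 18.3 RPKM. The lowest mean of Ccnd1 was in Y(KO) at 2.71 RPKM and that of Eno1 in Y(HET) at 52.1 RPKM.

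The enzymes did not vary as 1 block across the 36 libraries. Pearson's r of the log2 values is given as a description, since libraries share groups and cohorts. Over the 45 pairs of enzymes the median was 0.08, the range -0.35 (Hk1 with Tpi1) to 0.80 (Hk1 with Pfkl), 16 pairs were negative and 7 exceeded 0.5. Hk1 and Pfkl gave 0.80 over all libraries, 0.60 over the 21 young, -0.05 over the 15 old, and 0.28 after the mean of each group was removed. The value was thus lower within groups than over all libraries, and within the old libraries it was near 0. Aldoa and Ldha gave 0.69, and 0.68 after removal of the group means, so these 2 varied together from mouse to mouse within groups. Pfkp and Ldha gave 0.64 and 0.58 in the same way. Pgk1 and Eno1 gave 0.54 and 0.61. Hk2, Tpi1 and Pkm had no partner above 0.5.

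**Figure D4:**
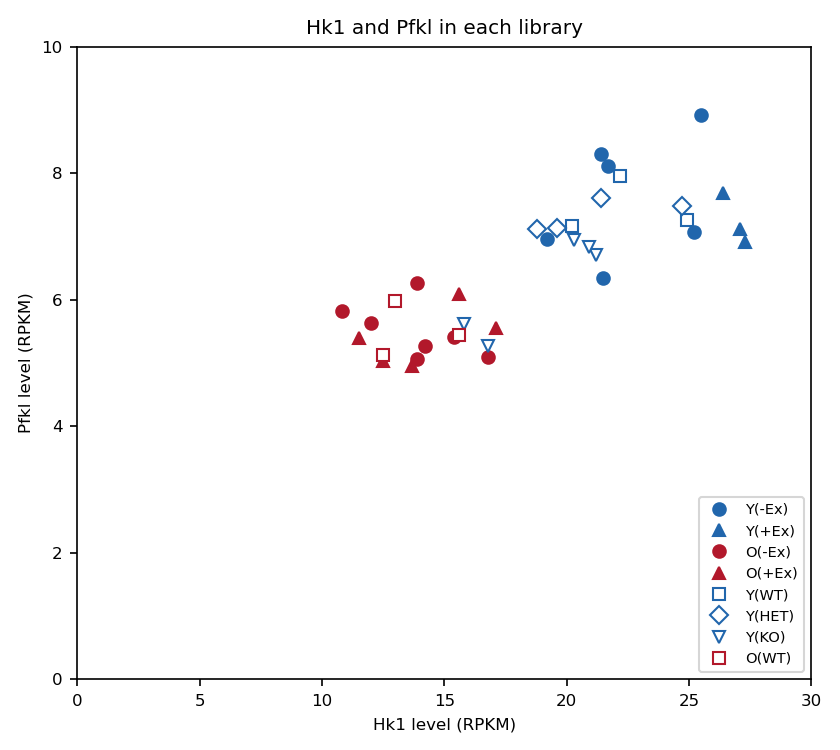
Hk1 (horizontal axis) and Pfkl (vertical axis) in RPKM in each of the 36 libraries, by group; blue is 3 months, red 18 months, filled symbols the wheel cohort and open symbols the Ccnd1 cohort. Old libraries gather at the lower left, and 2 of the 5 Y(KO) libraries lie beside them.

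**Figure D5:**
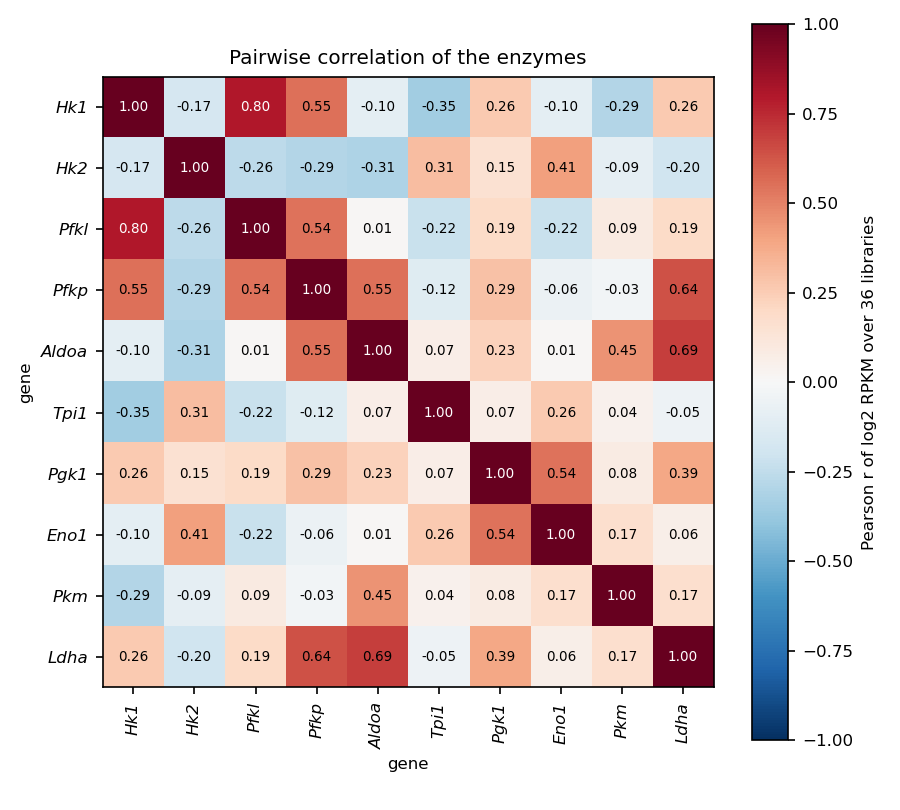
Pearson's r between the log2 levels of each pair of enzymes over the 36 libraries, with the value in each cell (red positive, blue negative). Hk1 with Pfkl (0.80) and Aldoa with Ldha (0.69) are the highest, and 16 of the 45 pairs are negative.

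The mean of the 10 log2 levels, each centred over the 36 libraries, moved little: its medians by group ran from -0.06 in O(WT) to 0.07 in Y(-Ex). Genes outside the set were ranked by likeness to that mean, with provisional symbols, such as Rik and Gm names, left out. The highest were Cd81, a tetraspanin of the cell surface (r = 0.80 over 36 libraries), Hsd17b10, a mitochondrial dehydrogenase (0.79), Kank1 (0.78), Lmf1 (0.77) and Mest (0.74).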

How the data were processed

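Per the labels' protocols, RNA was extracted from sorted MuSCs, reverse transcribed with oligo(dT) primers, amplified and sequenced as paired reads of 101 bases. The tools named in the submitters' processing notes are Trim Galore (trimming), STAR (alignment, with mm10 as the build) and featureCounts from Subread (counting), and no source used here gives their versions. The authors deposited RPKM values for 11337 genes in 36 libraries, each 1 mouse. No source used here describes the change to the values that took out 6 directions of variation. The authors also deposited a correlation coefficient with Ccnd1 per gene, used as a score.

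Log2 RPKM, with no pseudocount and no filter, were fitted with 1 mean per group within each cohort (limma 3.58.1, R 4.3.3, eBayes with trend and robust settings). Adjustment of the p-values was by Benjamini-Hochberg across all 11337 genes, with calls at 0.05. The script was tested on simulated data. The alternatives were a pseudocount of 0.5, a minimum mean of 1 RPKM, median-of-ratios (RLE) scaling, other samples in the fit, plain eBayes, a replicate block and leaving out each library. The 10 enzymes are all named. Other genes come from gene lists: up to 2 called genes in each direction per comparison, and any gene of the isozyme, carrier, flux, pyruvate and HIF lists. The members and lists were chosen with earlier results of these data known. Other lists named in the text were handled likewise. Positions are from GENCODE M21 (mm10) and promoter windows from RefSeq (GRCm38.p6), read with Python 3.11.15. Protein sequences were not used here.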

Additional observations from a re-analysis of the deposited data

Results flagged for a closer look

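Within-group outliers were looked for in the 50 combinations of enzyme and group that held 4 to 10 libraries, by the gap between an extreme library and its nearest neighbour as a share of the group's range. With a 95% critical value about 1 in 20 such combinations is flagged by chance, and 3 of the 50 were. Hk2 in O(+Ex) replicate 4 was 46.6 RPKM, the highest of its group, with a gap of 0.72 of the range. In the same library Tpi1 was 27.0 RPKM, the lowest of its group, with a gap of 0.79 of the range. Ldha in Y(HET) replicate 3 was 182 RPKM, the lowest of its group, with a gap of 0.84 of the range.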

How the results depend on the processing

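Of 90 enzyme differences, 6 were called (Hk1 and Pfkl in the 3 age comparisons) and none of them changed sign under any alternative. Of the 84 not called, 33 changed sign in some alternative, and these were at most 0.09 in size. With only the groups of a comparison in the fit, the enzymes called higher with the wheel in old mice were 1 (Hk2) in place of 0. Under RLE scaling the enzymes called lower with age under a free wheel were 4 in place of 2, as Pfkp (-0.28, adjusted p = 0.0456) and Ldha (-0.19, 0.0421) passed by limma. With each library left out in turn, the enzymes called lower with age ranged from 1 to 2 in the Ccnd1 cohort and from 2 to 3 with a free wheel, and those called higher with the wheel in old mice from 0 to 1. The third call with a free wheel was Pfkp without O(+Ex) replicate 1 or Ldha without O(+Ex) replicate 4. The cause of these shifts was not tested.

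The replicate numbers were not treated as pairs in the main fit, since each library is a separate animal. Deviations of same-numbered libraries correlated from -0.26 to 0.30. An unknown step took directions of variation out of the values, so these correlations cannot show whether same-numbered libraries shared a batch. With a replicate block no enzyme gained or lost a call: Hk1 gave -0.70 (adjusted p = 2.68e-04) and Pfkl -0.44 (0.00138) with age in the wheel cohort, -0.71 (0.0145) and -0.44 (0.0279) in the Ccnd1 cohort, and Hk2 gave 0.42 (0.0561) with the wheel in old mice. Over all genes the block left 0 higher and 1 lower in place of 573 and 220 for Y(KO) against Y(WT), 83 and 96 in place of 225 and 386 for Y(HET) against Y(WT), 219 and 43 in place of 584 and 101 for Y(KO) against Y(HET), and 7 and 7 in place of 46 and 81 for the wheel in young mice.

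Counts over all genes also moved by more than 1.5 times with only the groups compared in the fit: 541 lower in place of 880 for age in the Ccnd1 cohort, 12 and 10 for the wheel in young mice, 284 and 95 for Y(KO) against Y(WT), 136 and 164 for Y(HET) against Y(WT), and 267 and 60 for Y(KO) against Y(HET). With all 36 libraries in 1 fit, 78 genes were higher with the wheel in young mice. RLE scaling left 187 lower for Y(HET) against Y(WT) and 213 higher for Y(KO) against Y(HET). The depth of each library is unknown, so the counting error behind the lowest enzyme, Pfkl, cannot be given.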
